A study of Caenorhabditis elegans with 6 samples.

Results

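The 8 glutathione peroxidase genes of Caenorhabditis elegans, gpx-1 to gpx-8, were examined in whole worms raised on tyrosol or on vehicle. The genes were taken by symbol from the annotation of the array, with every probe set that names 1 gene alone. Where there are several, the probe set of highest mean over the 6 arrays stands for the gene. All 8 were measured, on 9 probe sets, among 17118 genes on 22548 probe sets in all. gpx-8 has 2 probe sets and the other genes have 1 each, and 0 of the 9 carry the manufacturer's suffix for probes shared with other sequences. The RefSeq gene table (WBcel235, used for names and gene order) lists gpx-8 as a pseudogene and the other 7 as protein-coding, and it places gpx-5 and gpx-3 next to each other on chromosome X with no gene between them.

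Glutathione peroxidases reduce hydrogen peroxide and lipid hydroperoxides to water and alcohols, with electrons from glutathione or, in many non-animal and invertebrate members, from thioredoxin. The oxidised glutathione is returned to its reduced form by glutathione reductase at the expense of NADPH. In C. elegans the family uses cysteine in place of the selenocysteine found in most mammalian members. The products of gpx-1, gpx-2, gpx-6 and gpx-7 are the worm's relatives of mammalian GPX4, the enzyme that reduces hydroperoxides of membrane phospholipids, and worms lacking these genes have been reported to be short-lived. The products of gpx-3 and gpx-5 resemble mammalian GPX3, a secreted form.

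Every worm carried fer-15 (b26), a temperature-sensitive allele that leaves adults without progeny at the restrictive temperature. Eggs were raised at 25 °C on agar holding 250 µM tyrosol, a phenolic alcohol of olive oil, or the vehicle, with ethanol at 0.1% in both groups, and worms were collected on day 4 of adulthood. There were 3 control and 3 tyrosol arrays of the Affymetrix C. elegans Genome Array. The labels do not say from how many separate cultures the arrays came, so the p-values rest on differences among these arrays that may be technical. In whole animals fewer cells of a type and less RNA per cell cannot be told apart.

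The values are log2 expression levels that the authors made by RMA (robust multiarray averaging), and array medians lay between 2.57 and 2.61. Mean correlations of each array with the other 5 ran from 0.991 to 0.995. Tyrosol replicate 2 stood apart: around its group mean its values scattered with an SD of 0.21, against 0.11 to 0.15 for the other 5 arrays. Its spiked control transcripts also showed a wider gap between the 3' and middle probe sets, at 1.38 on the log2 scale against 0.78 to 1.02. Intestinal markers were present, with all 11 measured ones above the array median on every array, and so were all 10 markers of germ line and oocytes. The latter averaged 8.69 on tyrosol replicate 2 and 9.10 to 9.32 on the other arrays. Of 26 sperm markers the rank product called 20 higher with tyrosol and limma 8, beside 0.882% and 0.351% of all genes called by each, and 20 of the 26 were read on probes shared with other sequences. Their mean level ran from 3.20 to 3.93 on the control arrays and from 4.56 to 4.77 on the tyrosol arrays. The part of the germ line and sperm marker shifts in the peroxidase values below was not tested. The 3' gap was put into limma as a covariate, and the values with it are given where they differ.

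No glutathione peroxidase gene was called as changed by tyrosol. The rank product, the test named in the series' design text, called 0 of the 9 probe sets at an estimated false discovery rate under 0.05, where it called 0.945% of all probe sets. Limma, with p-values adjusted over all probe sets by Benjamini-Hochberg, called 0 of the 8 genes, beside 0.351% of all genes, with adjusted p-values from 0.31 to 0.97. With the replicate number as a block, limma again called 0 of 8, beside 0.73% of all genes. At an unadjusted limma p under 0.05 there was 1 gene, gpx-3, which is 12.5% of 8 genes against 7.21% of all genes. The same gene was the only one whose tyrosol values all lay on one side of its control values, as did 13.7% of all genes, 6.92% with tyrosol above control.

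**Figure D1:**
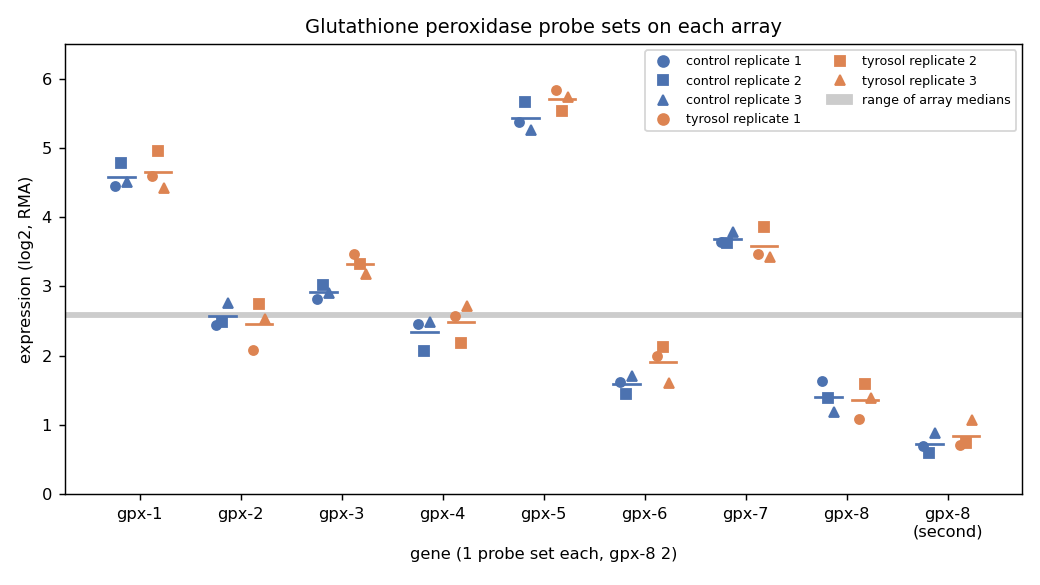
Expression (log2, RMA) of the 9 glutathione peroxidase probe sets on the 3 control and 3 tyrosol arrays, with horizontal bars at the group means and a grey band over the range of array medians. The tyrosol and control points are apart for gpx-3 and overlap for every other probe set.

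Of the GPX3-like pair, gpx-3 showed the largest difference of the family. The controls, here and below in the order of replicates 1, 2 and 3, read 2.82, 3.02 and 2.91. The tyrosol arrays read 3.47, 3.33 and 3.17. These 6 values were above the array medians, though only 55.4% of probe sets had a lower mean. All 3 tyrosol values lay above all 3 control values, though the gap between the nearest arrays, control replicate 2 and tyrosol replicate 3, was smaller than the range of the tyrosol values. The means were 2.91 ± 0.10 and 3.33 ± 0.15 (log2, SD, n = 3 each), a difference of 0.41 (SE 0.11, 95% interval 0.16 to 0.66) or 1.33-fold. The unadjusted limma p was 0.0054 and the adjusted p 0.31, and the rank product gave an estimated false discovery rate of 0.34. Without tyrosol replicate 2 the difference was 0.41 (limma adjusted p = 0.34), and leaving out single arrays it ran from 0.34 to 0.49.

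Its chromosomal neighbour gpx-5 read 5.37, 5.66 and 5.26 on control and 5.84, 5.53 and 5.74 on tyrosol. The groups overlapped, since control replicate 2 exceeded tyrosol replicate 2. The difference was 0.27 (SE 0.13, 95% interval -0.033 to 0.58, limma adjusted p = 0.74), or 1.21-fold. Between arrays of the same number it was 0.47 and 0.48 for replicates 1 and 3 and -0.13 for replicate 2. Without tyrosol replicate 2 it was 0.36 (limma adjusted p = 0.46), and without both replicate 2 arrays 0.47 (limma adjusted p = 0.20).

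Of the 4 GPX4-like genes, gpx-6 had the largest difference. Its values were 1.62, 1.45 and 1.70 on control and 2.00, 2.13 and 1.61 on tyrosol. Tyrosol replicates 1 and 2 lay above every control and tyrosol replicate 3 lay below 2 of the 3 controls. The difference was 0.32 (SE 0.15, 95% interval -0.014 to 0.66, limma adjusted p = 0.70). All 6 values were below the medians of their arrays, and a change can be compressed at such faint signal. Without tyrosol replicate 2 the difference was 0.21, without tyrosol replicate 3 it was 0.47, and without both replicate 2 arrays it was 0.14.

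For gpx-1 the control arrays read 4.45, 4.78 and 4.51, and those on tyrosol 4.59, 4.95 and 4.41. The replicate 2 array was the highest in both groups, and the tyrosol range enclosed the control range. Tyrosol minus control was 0.072 (SE 0.15, 95% interval -0.28 to 0.43, limma adjusted p = 0.95), and it turned to -0.079 without tyrosol replicate 2.

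The remaining GPX4-like genes had differences below 0. For gpx-2 the values were 2.45, 2.49 and 2.77 on control and 2.08, 2.74 and 2.53 on tyrosol, so that tyrosol replicate 1 alone lay below all controls. The difference was -0.12 (SE 0.17, 95% interval -0.52 to 0.28, limma adjusted p = 0.92), and without tyrosol replicate 1 it was 0.068. On 2 of the 6 arrays gpx-2 was above the array median.

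For gpx-7 the controls were close together, at 3.64, 3.63 and 3.78, while the tyrosol arrays read 3.47, 3.86 and 3.43. Tyrosol replicates 1 and 3 lay below all controls and tyrosol replicate 2 above them all. The SD was 0.085 among the controls and 0.24 among the tyrosol arrays. The difference was -0.097 (SE 0.13, 95% interval -0.40 to 0.20, limma adjusted p = 0.91). Without tyrosol replicate 2 it was -0.23 (limma adjusted p = 0.54).

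Of the other members, gpx-4 read 2.46, 2.07 and 2.48 on control and 2.57, 2.18 and 2.72 on tyrosol. In both groups the replicate 2 array was the lowest, and each tyrosol array exceeded the control of the same number, by 0.11, 0.11 and 0.23. The groups overlapped all the same. The difference was 0.15 with an SE of 0.17 (limma adjusted p = 0.89). With the replicate number as a block the SE was smaller and the adjusted p was 0.63. Without control replicate 2 the difference was 0.016, without tyrosol replicate 3 it was 0.038, and without tyrosol replicate 2 it was 0.31. One of its 6 values was above the array median.

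The pseudogene gpx-8 was faint on both probe sets. The representing one read 1.63, 1.39 and 1.18 on control and 1.09, 1.59 and 1.39 on tyrosol, a difference of -0.047 (SE 0.16, limma adjusted p = 0.97). The second probe set lay between 0.59 and 1.07 on the 6 arrays, with only 0.071% of probe sets at a lower mean, and differed by 0.11 (SE 0.13, limma adjusted p = 0.89). The probe sets thus differed in sign, each by less than its SE, and both lay below the median of every array.

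**Figure D2:**
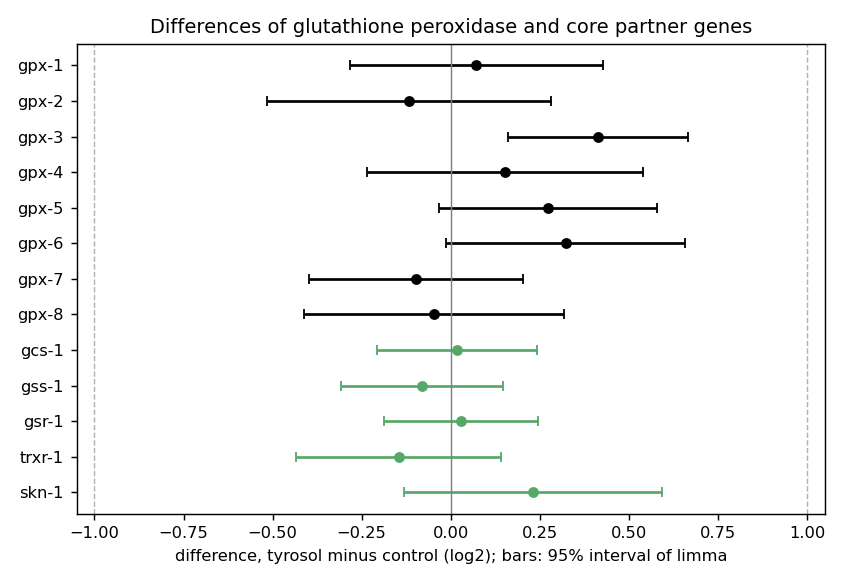
Difference between tyrosol and control on the log2 scale for the 8 glutathione peroxidase genes (black) and 5 core partner genes of glutathione metabolism (green), with 95% intervals from limma and dashed lines at a 2-fold change either way. The interval of gpx-3 lies above 0, the other 12 include 0, and none reaches a 2-fold change.

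Across the family the difference was positive for 5 genes and negative for 3. Its median over the 8 genes was 0.11 (log2), beside -0.017 over all 17118 genes, of which 44.7% were above 0. The median absolute difference was 0.13, against 0.091 over all genes. The family was also noisier, with a median SE of 0.15 against 0.11. The 95% intervals, which are not adjusted for the number of genes, spanned at their extremes 0.70-fold for gpx-2 and 1.59-fold for gpx-3, so that a 2-fold change on the array's scale lay outside all 8. Rises that the rank product did call elsewhere on the array began at 0.63 on the log2 scale, above all 8 differences.

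The highest tyrosol value was not on the same array for every gene. Tyrosol replicate 2 held the highest tyrosol value for 5 of the 8 genes (gpx-1, gpx-2, gpx-6, gpx-7 and gpx-8) and the lowest for 2, gpx-4 and gpx-5. This array also scattered most over all probe sets. Its share of highest or lowest values over all genes was not computed, so the counts are not read as a trait of the family. Tyrosol replicate 2 is the array with the wide 3' gap in its control transcripts and the low germ line markers. With the 3' gap as a covariate the differences were -0.040 for gpx-1, -0.20 for gpx-2, 0.28 for gpx-4, -0.17 for gpx-7 and -0.16 for gpx-8, and 0.42, 0.30 and 0.28 for gpx-3, gpx-5 and gpx-6, with 0 genes called. The part of the germ line markers was not tested. For gpx-2, gpx-5 and gpx-7 the comparison of replicate 2 arrays ran opposite to both other pairs. On the representing probe sets only gpx-3 and gpx-4 were higher on tyrosol in all 3 pairs of same-numbered arrays, and 0 genes were lower in all 3. The second probe set of gpx-8 was also higher in all 3, by 0.013, 0.14 and 0.19. The share of all genes with such pairs was not computed, so nothing is drawn from these counts.

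**Figure D3:**
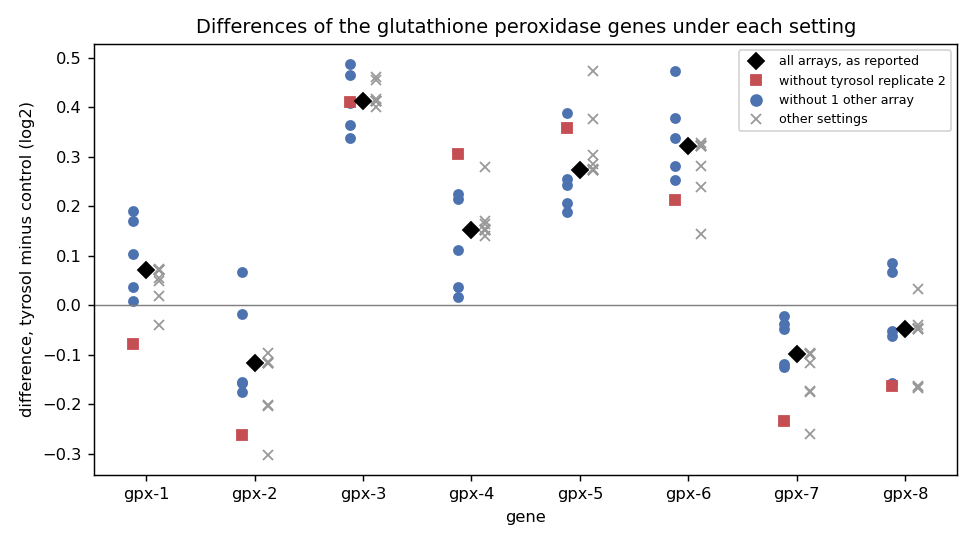
Difference between tyrosol and control on the log2 scale for each glutathione peroxidase gene with all arrays (black diamonds), without tyrosol replicate 2 (red squares), without 1 other array (blue circles) and under the other settings (grey crosses). gpx-3, gpx-4, gpx-5 and gpx-6 stay above 0 and gpx-7 below 0, while gpx-1, gpx-2 and gpx-8 cross 0.

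The genes whose profile over the 6 arrays was nearest to that of gpx-3 were cyp-35B1, a cytochrome P450 gene, F07H5.4 and hlb-1. Nearness was the root mean square difference between log2 profiles, each centred on its own mean. It was 0.047, 0.050 and 0.064 for these genes, where a flat profile would lie at 0.23. Their own differences between tyrosol and control were 0.38, 0.39 and 0.40, with limma adjusted p-values of 0.38, 0.25 and 0.22. Because they were picked by nearness over the same 6 arrays, differences close to that of gpx-3 follow from the choice. Of the other peroxidases gpx-5 and gpx-6 came closest, in places 442 and 805 among 17117 genes, and gpx-2 was the farthest, in place 16026. The profiles hold the difference between tyrosol and control, so these places partly restate the differences given above.

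Neither test called any of the 4 core enzymes named here, of glutathione synthesis and of glutathione and thioredoxin reduction. gcs-1, the glutamate-cysteine ligase that sets the pace of glutathione synthesis, averaged 7.21 ± 0.090 on control and 7.23 ± 0.097 on tyrosol (log2, mean ± SD over 3 arrays each), a difference of 0.017 (SE 0.098). gss-1, glutathione synthetase, differed by -0.081 (SE 0.099) and gsr-1, glutathione reductase, by 0.029 (SE 0.094). trxr-1, the cytosolic thioredoxin reductase and the worm's only known selenoprotein, differed by -0.15 (SE 0.13), or by -0.0048 when its probe sets were averaged. Their groups overlapped in every case, and the lowest limma adjusted p among the 4 was 0.86. Their 95% intervals reached from -0.43 to 0.25 at the extremes. Outside these 4, gclm-1 of the synthesis list below differed by -0.11 (SE 0.093, limma adjusted p = 0.86), with every tyrosol value below every control.

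Around the peroxidases 7 lists of related genes were examined, with 114 of 120 genes measured. The rank product and limma called 0 of the 114 higher and 0 lower, beside 0.882% and 0.351% of all genes, and limma with the replicate block called 0. At an unadjusted limma p under 0.05 there were 4 genes higher and 1 lower, where 4.55% and 2.66% of all genes passed. Over the 114 genes the differences had a median of -0.023 (log2), and 49 were above 0. All tyrosol values lay above all control values for 7 of the 114 and below them for 6. Among these are gclm-1, T03D8.6, txdc-12.1, gspd-1, sek-1, acs-17 and coq-1. Of all genes 13.7% were apart in either direction, 6.92% with tyrosol above control.

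In glutathione synthesis and turnover 10 of 14 measured genes were above 0, with a median of 0.018. T03D8.6 had the largest difference, from 4.32, 4.77 and 4.56 on control to 5.04, 5.38 and 4.88 on tyrosol, with every tyrosol value above every control. It was 0.55 (SE 0.16, limma adjusted p = 0.38), and 0.12 was its adjusted p with the replicate block. cysl-2, a cysteine synthase-like gene, differed by -0.22 (SE 0.12), and by -0.11 without control replicate 2. Among 17 genes of glutathione reduction, glutaredoxins and thioredoxins 6 were above 0 (median -0.032). The thioredoxin-domain gene txdc-12.1 differed by 0.25 (SE 0.11, limma adjusted p = 0.66) and the glutaredoxin gene glrx-5 by -0.30 (SE 0.17), or -0.12 without control replicate 2.

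Of 11 genes that supply NADPH 3 were above 0 (median -0.063). gspd-1, glucose-6-phosphate dehydrogenase, differed by -0.20 (SE 0.12) and idh-1, the cytosolic NADP-dependent isocitrate dehydrogenase, by 0.25 (SE 0.13), in opposite directions and with limma adjusted p-values of 0.80 and 0.76. Without tyrosol replicate 3 gspd-1 was -0.078, and idh-1 was 0.14 without control replicate 2 and 0.069 when its probe sets were averaged. Of 15 other genes of peroxide and superoxide removal 5 were above 0 (median -0.023). The 15 include the superoxide dismutases, the peroxiredoxins and, of the listed catalase genes, ctl-2 alone. The sestrin gene sesn-1 differed by -0.36 (SE 0.24), a value set by tyrosol replicate 2, at 3.12 where the other tyrosol arrays gave 4.12 and 3.99. Without that array it was -0.047. The peroxidase gene skpo-3 differed by 0.18 (SE 0.11), or 0.11 when its probe sets were averaged.

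Among 24 other glutathione-dependent enzymes 11 were above 0 (median -0.030). The glutathione transferase genes gst-38 and gstk-2 differed by -0.34 (SE 0.13, limma adjusted p = 0.63) and -0.22 (SE 0.13), the latter by -0.10 without control replicate 2. The signal of gst-38 was faint, above the array median on 1 array. Of 13 regulators, the SKN-1 pathway and its partners, 6 were above 0 (median -0.069). sek-1, the kinase upstream of the p38 kinase PMK-1, read 4.63, 4.67 and 4.76 on control and 5.17, 5.63 and 4.94 on tyrosol. Its groups were apart, and the difference was 0.56 (SE 0.17, limma adjusted p = 0.39), or 0.37 without tyrosol replicate 2 and 0.27 when its probe sets were averaged (limma adjusted p = 0.68). skn-1 itself, the transcription factor that drives many glutathione genes, differed by 0.23 (SE 0.16), with overlapping groups, and by -0.052 when its probe sets were averaged. png-1, a peptide N-glycanase that activates a form of SKN-1, differed by -0.24 (SE 0.13), or -0.13 without control replicate 2.

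The last list holds genes of polyunsaturated fatty acids, iron and lipid peroxidation, which bear on the substrates of GPX4-type enzymes. Of its 20 genes 8 were above 0 (median -0.012). The acyl-CoA synthetase gene acs-17 read 4.40, 4.14 and 4.22 on control and 4.67, 4.58 and 4.63 on tyrosol, with no overlap of the groups and a difference of 0.37 (SE 0.099, limma adjusted p = 0.31), which was 0.14 when its probe sets were averaged (limma adjusted p = 0.88). coq-1, of ubiquinone synthesis, differed by -0.25 (SE 0.12), with every tyrosol value below every control value, and by -0.46 when its probe sets were averaged (limma adjusted p = 0.83). Without control replicate 3 it was -0.14.

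**Figure D4:**
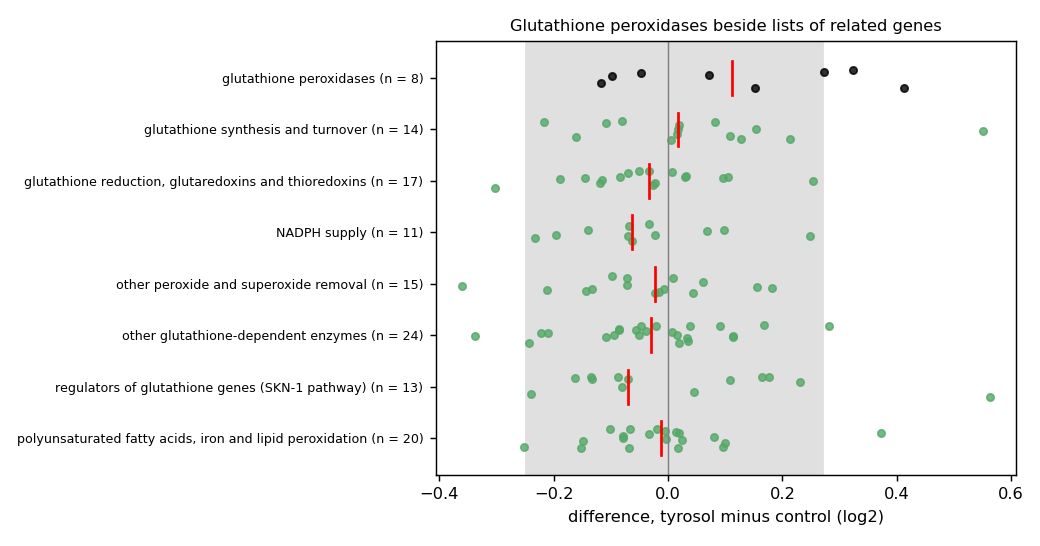
Difference between tyrosol and control on the log2 scale for each measured gene of the glutathione peroxidase family (black) and of 7 lists of related genes (green), with red bars at list medians and a grey band from the 5th to the 95th percentile of all genes, -0.25 to 0.27. List medians lie between -0.069 and 0.11, and gpx-3, gpx-6 and, at its edge, gpx-5 lie to the right of the band. Genes of the related lists lie outside it too, among them T03D8.6, sek-1 and acs-17 to the right and sesn-1, gst-38, glrx-5 and coq-1 to the left.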

How the data were processed

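Per the series' design text and the submitters' processing notes, the authors made the deposited log2 values with RMA, 1 per probe set and array; the sources used here give no version. That the base is 2 was read from their range, 0.47 to 12.53. No pair of arrays was identical. The 77 manufacturer's control probe sets were left out. Gene names came from the platform annotation; a comparison with RefSeq by gene number changed 0 of them. The rank product was programmed in Python 3.11.15 (numpy 2.4.6): 9 pairwise differences, 100 permutations within arrays. Limma 3.58.1 in R 4.3.3 (lmFit, eBayes, two-sided, Benjamini-Hochberg adjustment over 22548 probe sets) gave differences, SEs and intervals. Both were tested on simulated data. There the rank product kept its error rate when all probe sets shared one spread and exceeded it when they did not. The share of the set changes that limma called is not given here, so the absence of calls does not exclude differences of the sizes above.

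The members and lists were chosen with earlier results of these data known. Named were all gpx genes, gcs-1, gss-1, gsr-1, trxr-1, skn-1, in each list any called gene and the 2 of lowest limma p, and the 3 profiles nearest to the gpx gene of largest difference. gclm-1 was added after its values were known. 1 list name, ccs-1, matched no gene. Marker lists covered intestine, muscle, epidermis, neurons, pharynx, germ line and sperm; outside sperm, 0 marker genes were called by either test. Deviations of same-numbered arrays from their group means correlated at 0.11, 0.37 and 0.26, all above 0.1, so a pairing by number was tried. It entered only the replicate block and the comparisons of same-numbered arrays. The main limma and rank product results do not use it. The pairing rests on a hint from these data and not from the labels. Control replicate 3 correlated more with tyrosol replicate 1, at 0.28, than with its own number. The alternatives tried were a replicate block, omission of arrays, a filter on faint probe sets, other probe set rules, renormalisation, other limma settings and another random seed.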

Additional observations from a re-analysis of the deposited data

How the results depend on the processing

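Under 14 alternatives to the rank product and 16 to limma, the counts of called glutathione peroxidase genes and of called genes in the 7 lists stayed at 0, and the median difference of the peroxidases lay between 0.067 and 0.14 on the log2 scale, or 0.17 over the 4 genes that the filter on faint probe sets kept. Directions turned for gpx-1, gpx-2, gpx-8, gcs-1, gsr-1 and skn-1. Without single arrays gpx-1 ran from -0.079 to 0.19, gpx-2 from -0.26 to 0.068, gpx-8 from -0.16 to 0.085 and its second probe set from -0.0019 to 0.19, gcs-1 from -0.026 to 0.070 and gsr-1 from -0.0076 to 0.074. Averaging the probe sets of each gene, gpx-8 was 0.034 and skn-1 -0.052, with the 3' gap of the control transcripts as a covariate gpx-1 was -0.040, and without both replicate 2 arrays gsr-1 was -0.031. The cause was not tested. The lowest limma adjusted p of gpx-3 over its alternatives was 0.12, with array weights, and the highest 0.82, without control replicate 1. The replicate block changed no call of a gene named here. Signal limits gpx-6 and gpx-8, below the median of every array, and gpx-2 and gpx-4, near it. gpx-3 was above the median on all 6 arrays but not far from it, with 55.4% of probe sets at a lower mean.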
